A study of Mus musculus with 8 samples.

Results

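Axon guidance ligands and receptors were followed in cultured mouse muscle stem cells that had lost the chromatin remodeller Chd4. The set was taken by gene symbol: all ephrins (Efna, Efnb), Eph receptors (Epha, Ephb), semaphorins (Sema), plexins (Plxn), neuropilins (Nrp), Slit and Robo genes, netrins (Ntn) and Unc5 receptors in the deposited gene table. It came to 60 of 20976 genes, namely 31 ligands and 29 receptors. The rule uses symbols alone, but the set was picked for description with earlier results of these data known, so its shares of calls are not those of a set chosen blind.

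The cells were muscle stem cells, the satellite cells that rebuild muscle fibres, isolated by flow cytometry; the mice carried loxP sites in both Chd4 alleles, and the cells grew briefly in serum with bFGF. The Cre group received an adenovirus with Cre, the recombinase that cuts out exons 12 to 21 of Chd4. The GFP group received an adenovirus with GFP. Both groups therefore share the loxP alleles, the culture and a viral infection, and each held 4 libraries from 4 mice. The sources used here do not give strain, age or the time after infection. No library combined Cre with a Chd4 gene lacking loxP sites, so effects of Cre itself and of Chd4 loss cannot be told apart.

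Axon guidance molecules are surface and secreted cues that steer growing nerve fibres, and many of them also act between muscle, vessel and immune cells. Ephrins are held in the membrane, by a lipid anchor in class A and by a transmembrane segment in class B, and bind Eph receptor tyrosine kinases on the neighbouring cell, with signals running into both cells. Semaphorins bind plexins, with neuropilins as co-receptors for most secreted class 3 members. Slits bind Robo receptors, and netrins bind Unc5 receptors, Dcc and neogenin. In skeletal muscle, ephrins and Eph receptors are known to guide migrating muscle precursors and incoming motor axons, and semaphorin 3A is known to be made by activated satellite cells.

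Values are normalised reads, that is, read counts per gene scaled between libraries and rounded before deposition. Totals per library lay between 27897860 and 28876348, and the 60 genes together took 0.419 to 0.560% of them. Chd4 stood at 3686, 5480, 5010 and 5134 in Cre replicates 1 to 4, against 17886, 15904, 16634 and 20121 in GFP, which left 27.2% of the GFP level (95% interval 23.5 to 31.4%). Libraries with equal numbers shared their deviations from the group means (correlations 0.820 to 0.908 between a Cre and a GFP library), so the comparison is paired by number. Xist, the transcript of the inactive X chromosome, was at 40670 to 49984 in replicates 1 and 4 and at 2 to 12 in replicates 2 and 3 of both groups, so the pairs also differ in the sex of the cells.

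Of the 60 genes, 51 passed the filter of 1 CPM (about 28 normalised reads, from the library total) in at least 4 libraries, and 46 of these passed it in all 8; 0 passed through libraries of a single group. In the paired model 23 rose and 7 fell in Cre (limma, Benjamini-Hochberg adjusted p under 0.05 over 12910 genes), and 21 were not called. Over all genes tested the same model called 22.2% higher and 21.7% lower, so the members' shares were 45.1% higher and 13.7% lower. The median log2 change was 0.18 over the 51 members and -0.00 over all genes tested. Of the 23 that rose, 13 were ligands and 10 receptors, and of the 7 that fell, 5 were ligands and 2 receptors.

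Without the pairing, 2 members passed over all genes, the ligands Efna3 and Sema6b, both higher (0.837% of genes were called higher and 0.248% lower), and 0 passed as lower in limma. At an unadjusted p under 0.05 the unpaired model had 12 members higher and 2 lower, against 7.41 and 9.3% of all genes tested. Groups did not overlap for 7 members higher in Cre and for 1 lower, against 4.41 and 6.17% of all genes. All p-values rest on 4 libraries a group, and the pairing is read from the values, since the labels do not state it. With bulk RNA, a change in the number of expressing cells and a change in RNA per cell cannot be told apart.

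**Figure D1:**
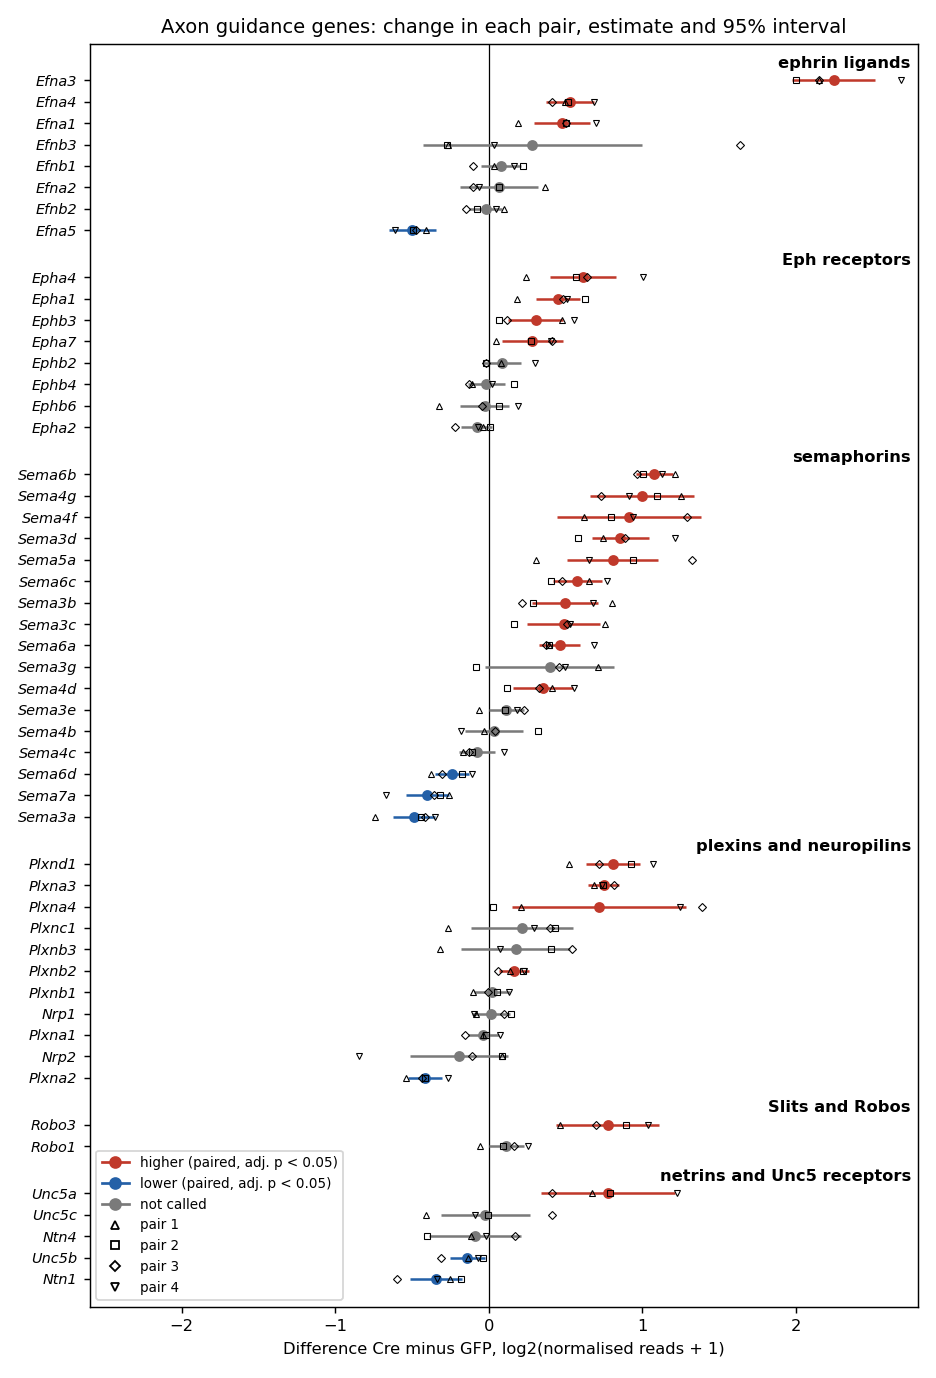
Difference Cre minus GFP on the log2(normalised reads + 1) scale for the 51 tested genes (x axis), ordered by role and size (y axis); filled points and bars are the paired estimate and its 95% interval, and open symbols are the 4 pairs. Efna3 stands furthest to the right at 2.25, and 23 genes are marked higher and 7 lower.

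Markers of other cell types moved in the same samples. Of the muscle list, 9 of 10 markers were measured and 8 tested, with 2 higher (Myod1 and Des) and 3 lower (Myf5, Vcam1 and Pax7). Sums were 101104 to 120863 in Cre and 101065 to 108504 in GFP. Myf5 fell most, to 67.6% of GFP (limma paired model, adjusted p = 0.000124, unpaired 0.694). Vcam1 fell to 81.5% (adjusted p = 0.0019, unpaired 0.574). Myod1 and Des stood at 115 and 113% of GFP, and both were lower in Cre in pair 3. Pax7, which defines muscle stem cells, was at 4381 to 6458 in Cre and 5390 to 6704 in GFP, and Calcr, a marker of the resting cells, did not exceed 9. The neuron list had 8 of 10 measured, with sums of 1214 to 2528 in Cre and 618 to 2629 in GFP, and 2 of 4 tested members rose (Stmn2 and Nefm). Nefm was lower in Cre in pair 4, at 1795 against 2146, and was not called with voom (adjusted p = 0.283). Of the untested synaptic markers on this list, Snap25 was at 18, 1, 0 and 5 in Cre and 25, 0, 0 and 1 in GFP, and Syt1 at 3, 0, 1 and 46 in Cre and 3, 0, 0 and 17 in GFP. For Schwann cells and glia 6 of 10 were measured, with sums of 1308 to 3915 in Cre and 1155 to 3420 in GFP; Ngfr and Erbb3 rose, and S100b did not exceed 6.

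Endothelial markers summed to 517 to 918 in Cre and 363 to 471 in GFP over 8 of 10 measured, with Tek and Egfl7 higher among 4 tested, and the other 4 measured untested. Of these, Kdr was at 46, 19, 27 and 14 in Cre and 14, 6, 2 and 4 in GFP, Esam did not exceed 15, Cdh5 did not exceed 9, and Cldn5 was at 0 to 5. The pericyte and smooth muscle list had a higher sum, at 65318 to 106363 against 29554 to 53002. Of its 7 tested members 5 were up, against 22.2% of all genes tested. Rgs5 led, with a mean of 36372 in Cre against 8646 in GFP. Acta2, with means of 29084 in Cre and 29165.5 in GFP, and Pdgfrb were not called (limma paired model, adjusted p = 0.948 and 0.129). Of the 3 untested members of this list, Cnn1 was at 7, 11, 18 and 8 in Cre and 1, 0, 0 and 1 in GFP, Kcnj8 at 11, 1, 6 and 0 against 1, 0, 0 and 0, and Myh11 at 5 to 9 against 2 to 9. Fibroblast markers, 7 of 10 measured, summed to 1340 to 2079 in Cre and 1400 to 1887 in GFP. Of 5 tested, 3 rose, with Ly6a at 5.10-fold, and 1 fell, Cd34, to 42.5% of GFP. Leukocyte markers, 4 of 10 measured, summed to 1601 to 2844 in Cre and 446 to 1062 in GFP. Both tested members, Laptm5 and Cd68, rose, while the untested Csf1r and Itgam did not exceed 59 and 7. The part of these cell types in the changes below was not tested.

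Among the ephrins, the ligands of Eph receptors, 3 of the 5 class A genes rose and 1 fell in the limma paired model. That model called 22.2% of all genes tested higher and 21.7% lower. Of the 3 class B genes 0 were called, also at an unadjusted p under 0.05 and with voom. Efna3 showed the largest change of all members. It stood at 448, 367, 292 and 508 normalised reads in replicates 1 to 4 of Cre, against 100, 91, 65 and 78 in those of GFP. Every Cre library lay above every GFP library. The mean rose from 83.5 ± 15.3 to 404 ± 94.3 (SD, n = 4 each). The log2 change was 2.25 with an SE of 0.12 (adjusted p = 1.59e-06, unpaired 0.00715), or 4.75-fold with a 95% interval of 3.93 to 5.73.

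The neighbouring genes Efna4 and Efna1 rose less; ± after a log2 change is its SE throughout. Efna4 was at 661, 509, 491 and 687 in Cre and at 468, 355, 369 and 427 in GFP, again without overlap, a log2 change of 0.53 ± 0.07 (adjusted p = 0.000219, unpaired 0.146). Efna1 was at 736, 674, 698 and 605 in Cre and at 644, 474, 491 and 372 in GFP. Its groups overlapped, since GFP library 1 lay above Cre library 4, but each Cre library exceeded its GFP partner (log2 change 0.48 ± 0.08, adjusted p = 0.00105, unpaired 0.206). Efna5, on another chromosome, went the other way, from 401, 498, 695 and 594 in GFP to 302, 353, 501 and 389 in Cre (log2 change -0.50 ± 0.07, adjusted p = 0.000278, unpaired 0.287).

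The remaining ephrins gave narrow intervals for the abundant members and wide ones for the rare. Efnb2, known from arterial endothelium and the ephrin with the highest level per exon length, was at 6094 ± 844 in Cre and 6143 ± 451 in GFP, a Cre to GFP ratio of 0.987 (95% interval 0.916 to 1.06, adjusted p = 0.785). For Efnb1 the ratio was 1.06 (0.965 to 1.16) and for Efna2 1.05 (0.878 to 1.25). Efnb3 had 23 to 42 reads in Cre and 8 to 41 in GFP and an interval of 0.743 to 2.0. Per kb of annotated exon, Efna3 was the lowest class A ephrin in GFP, at 34.3 ± 6.28 normalised reads per kb. In Cre it reached 166 ± 38.7 per kb, below Efna1 at 371 ± 30.1 and Efna4 at 367 ± 63.3 and above Efna5 at 95.8 ± 20.9.

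**Figure D2:**
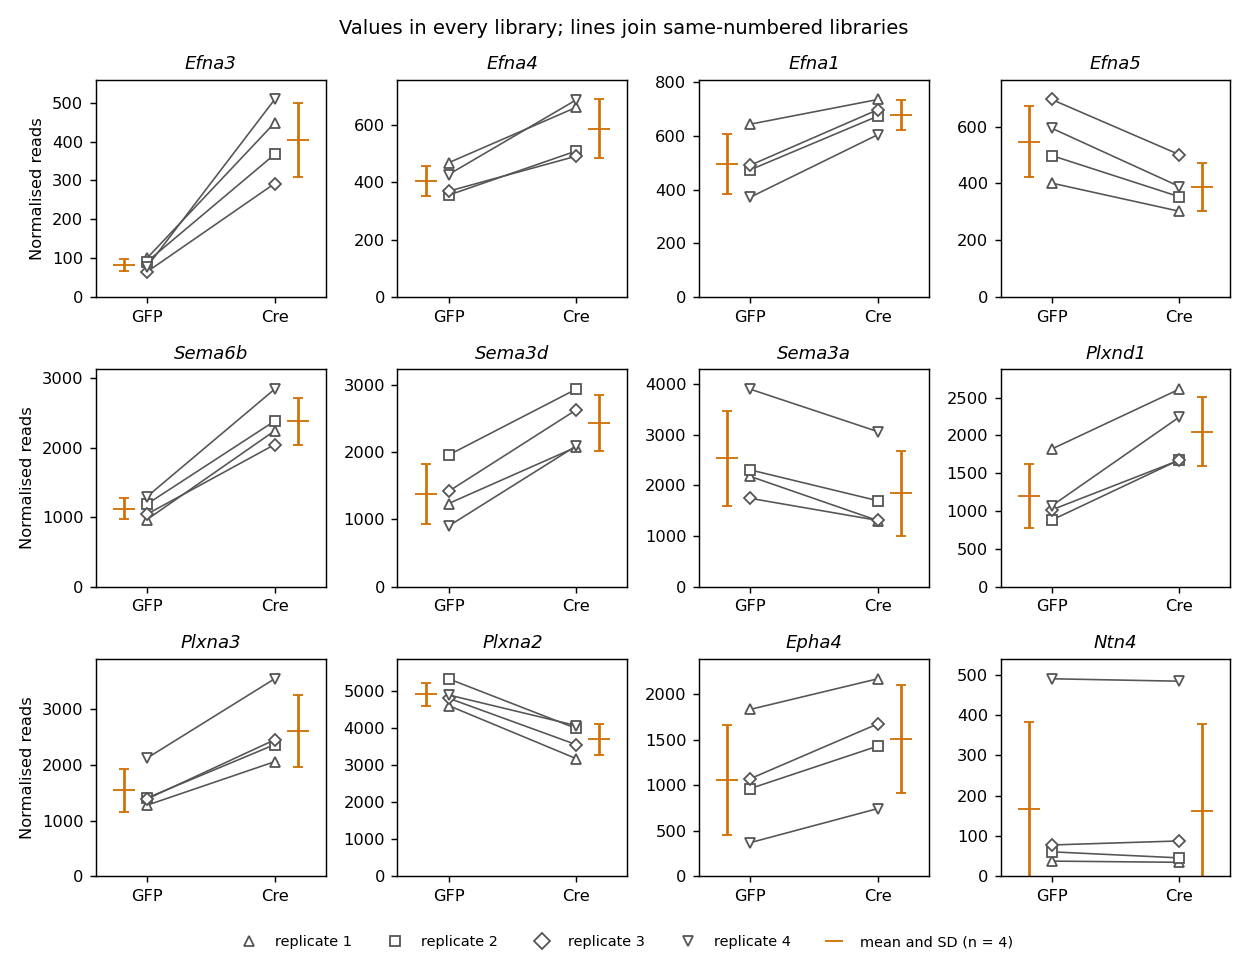
Normalised reads (y axis, from 0) of 12 genes in every GFP and Cre library; grey symbols are replicates 1 to 4, lines join same-numbered libraries, and orange marks give the mean and SD (n = 4), whose lower arm runs below the axis for Ntn4. Efna3 and Sema6b separate the groups, the lines of Efna5, Sema3a and Plxna2 all fall, and in Ntn4 replicate 4 is high in both groups.

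The 3 ephrin-A genes that rose lie side by side on chromosome 3, all on the minus strand (GRCm38, coordinates of the deposited table): Efna1 from 89271733 to 89281142, Efna3 from 89313899 to 89322965 and Efna4 from 89333390 to 89338028. The start of Efna3 is 15.1 kb from that of Efna4 and 41.8 kb from that of Efna1. They were the only members called in the same direction with starts within 200 kb of each other; the 2 other such pairs, Robo3 with Robo4 and Sema3b with Sema3f, each had 1 untested member. Within 250 kb on either side of the Efna3 start, 23 other genes were tested, of which 11 rose and 6 fell. Over all genes tested, 22.2% were called higher and 21.7% lower. The 23 genes had changes from -0.47 to 1.24 and a median of 0.15 on the log2 scale. Efna3 thus changed most in this window, and its surroundings held changes in both directions.

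**Figure D3:**
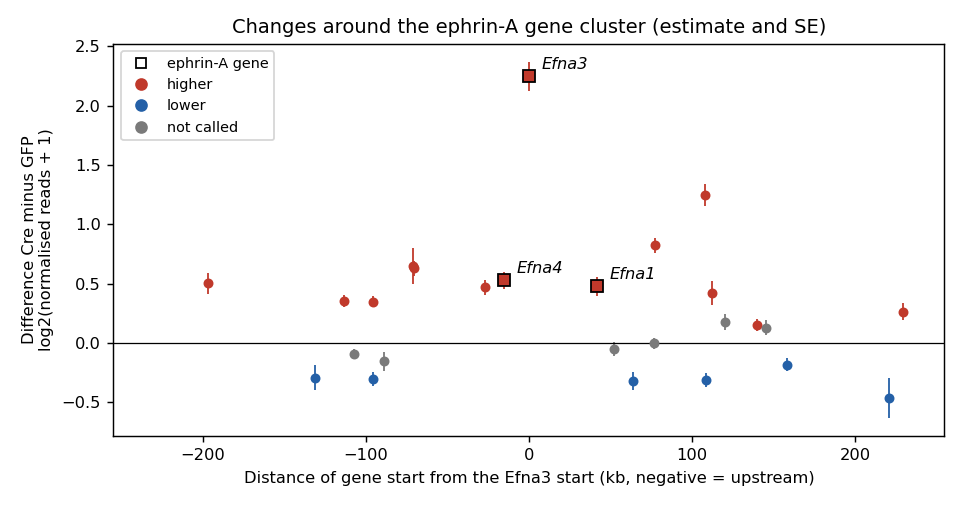
Log2 difference Cre minus GFP (y axis, estimate and SE of the paired model) against the distance of each tested gene's start from the Efna3 start in kb (x axis, negative upstream). Squares are the 3 ephrin-A genes, at 2.25, 0.53 and 0.48, and circles are the 23 other genes, 11 higher, 6 lower and 6 not called.

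The bases just upstream of a RefSeq start of the 3 neighbours that rose, and of the ephrin-A gene that fell, are printed to show how these regions differ. They are 250 bases of RefSeq sequence on GRCm38.p6, written 5′ to 3′ on the gene's strand, ending just before the listed start nearest to the gene start in the deposited table. That start lies 191 bases inside the deposited Efna1 gene and 26 bases inside Efna3, so the last 191 and 26 bases of these stretches fall within the genes; for Efna4 and Efna5 the starts coincide. Capitals mark the GC box GGGCGG, a binding sequence of Sp1-type factors, on either strand (CCGCCC on the other), with no overlap between marked copies.
Efna1, chr3:89280952-89281201, minus strand: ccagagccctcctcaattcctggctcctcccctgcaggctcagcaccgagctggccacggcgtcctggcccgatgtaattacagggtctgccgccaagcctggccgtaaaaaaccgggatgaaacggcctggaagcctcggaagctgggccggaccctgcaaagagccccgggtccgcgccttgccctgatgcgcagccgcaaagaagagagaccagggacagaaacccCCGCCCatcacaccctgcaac
Efna3, chr3:89322940-89323189, minus strand: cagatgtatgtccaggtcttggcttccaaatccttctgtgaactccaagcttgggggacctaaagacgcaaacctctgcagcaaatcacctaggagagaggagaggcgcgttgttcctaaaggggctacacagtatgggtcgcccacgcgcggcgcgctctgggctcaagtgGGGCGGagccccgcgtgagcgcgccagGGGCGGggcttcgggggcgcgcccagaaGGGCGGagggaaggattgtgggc
Efna4, chr3:89338029-89338278, minus strand: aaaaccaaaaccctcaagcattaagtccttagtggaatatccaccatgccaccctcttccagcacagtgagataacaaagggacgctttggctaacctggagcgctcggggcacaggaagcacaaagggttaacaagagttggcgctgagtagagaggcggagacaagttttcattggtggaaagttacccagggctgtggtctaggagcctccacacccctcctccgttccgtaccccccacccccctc
Efna5, chr17:62881318-62881567, minus strand: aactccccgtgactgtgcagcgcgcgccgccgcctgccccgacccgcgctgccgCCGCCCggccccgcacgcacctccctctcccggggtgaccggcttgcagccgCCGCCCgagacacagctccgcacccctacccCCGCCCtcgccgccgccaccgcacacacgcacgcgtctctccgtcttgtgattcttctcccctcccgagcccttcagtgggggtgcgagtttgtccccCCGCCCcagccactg

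These stretches hold 1, 3, 0 and 4 GC boxes for Efna1, Efna3, Efna4 and Efna5, and 16, 19, 7 and 32 CG pairs. The gene that fell thus carries the most of both in this window, and the 3 that rose range from none to 3 boxes. Of the 60 members, 51 had a start region in the table; 37 of them (72.5%) hold the box, against 32.7% of all 32851 start regions, many of which belong to genes of other classes. Among members that rose, 16 of 20 hold it, among those that fell 5 of 6, among those not called 14 of 19, and among those not tested 2 of 6. A match of letters is a description and not a binding site.

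Among the Eph receptors, 4 of 8 tested genes rose and 0 fell in the limma paired model, against 22.2 and 21.7% of all genes tested. Also at an unadjusted p under 0.05 and with voom, 0 fell. Epha4, a receptor of both ephrin classes that is known from motor axon guidance, was at 2167, 1429, 1673 and 744 in Cre and at 1831, 963, 1071 and 370 in GFP. The spread between replicates was wide, with replicate 1 highest and replicate 4 lowest in both groups, yet each Cre library exceeded its partner (log2 change 0.62 ± 0.10, adjusted p = 0.00061, unpaired 0.587). Epha1 was at 1915, 3770, 4638 and 4295 in Cre and at 1682, 2434, 3308 and 3009 in GFP (log2 change 0.45 ± 0.06, adjusted p = 0.00032, unpaired 0.514). Epha1 overlaps Zyx on the opposite strand, whose mean was 23420 reads, so without known strand use its value is uncertain.

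The other 2 receptors that rose did so by less. Ephb3 had 1336 ± 385 reads in Cre against 1126 ± 479 in GFP (log2 change 0.31 ± 0.08, adjusted p = 0.0117, unpaired 0.724), a call lost without pair 4 (adjusted p = 0.0637). Epha7 was at 797, 132, 177 and 513 in Cre and at 770, 109, 133 and 387 in GFP, so that replicates 1 and 4 were far above 2 and 3 in both groups (log2 change 0.28 ± 0.09, adjusted p = 0.0253, unpaired 0.901). Its call was lost without pair 2, 3 or 4 and with voom (adjusted p up to 0.127). Epha2, the Eph receptor with the highest level per exon length, was at 8206 ± 725 in Cre and 8688 ± 1054 in GFP, a ratio of 0.947 (95% interval 0.882 to 1.02). For Ephb2, Ephb4 and Ephb6 the ratios were 1.06 (0.974 to 1.16), 0.990 (95% interval 0.909 to 1.08) and 0.982 (0.879 to 1.1), and none of these 3 was called.

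The semaphorins, the role group with the most tested genes, also had the most calls: of 17 tested, 10 rose, 3 fell and 4 were not called. Shares were 58.8% higher and 17.6% lower, against 22.2 and 21.7% of all genes tested. Class 6, transmembrane ligands of class A plexins, had all 4 of its genes called. Sema6b was at 2243, 2383, 2045 and 2842 in Cre and at 966, 1189, 1044 and 1296 in GFP. No library overlapped, and the mean rose from 1124 ± 147 to 2378 ± 339 (log2 change 1.08 ± 0.05, adjusted p = 1.1e-06, unpaired 0.0147), or 2.11-fold (95% interval 1.95 to 2.30). Sema6b lies on chromosome 17 from 56123085 to 56140343, minus strand.

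Sema6c and Sema6a rose without overlap of the groups, and Sema6d fell. Sema6c was at 701, 783, 775 and 948 in Cre and at 446, 591, 556 and 554 in GFP (log2 change 0.58 ± 0.07, adjusted p = 0.000155, unpaired 0.087). Sema6a had a log2 change of 0.46 ± 0.06 (adjusted p = 0.000184, unpaired 0.151), and Sema6d, at 3123, 3208, 3261 and 5323 in Cre and 4050, 3619, 4021 and 5726 in GFP, one of -0.24 ± 0.05 (adjusted p = 0.00351, unpaired 0.616). Per kb of exon, Sema6d at 412 ± 88.6 was the highest of the class in GFP and Sema6b at 283 ± 37.1 the second. In Cre the order was turned, with Sema6b at 599 ± 85.4 per kb and Sema6d at 353 ± 101.

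The secreted class 3 semaphorins moved in both directions. Sema3d was at 2076, 2937, 2629 and 2093 in Cre and at 1237, 1958, 1418 and 902 in GFP, every Cre library above every GFP library (log2 change 0.86 ± 0.08, adjusted p = 3.45e-05, unpaired 0.126). Sema3b and Sema3c, ligands that work through neuropilins, rose by 0.50 and 0.49 (adjusted p = 0.00202 and 0.00414, unpaired 0.359 and 0.389). Sema3a, a repellent of motor and sensory axons, fell, from 2179, 2307, 1746 and 3900 in GFP to 1306, 1698, 1310 and 3062 in Cre. Replicate 4 was highest in both groups and the groups overlapped, but all 4 pairs went down (log2 change -0.49 ± 0.06, adjusted p = 0.000182, unpaired 0.502).

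Sema3e, a class 3 member that binds plexin D1 without a neuropilin, had the highest level per exon length of all semaphorins, at 1459 ± 432 normalised reads per kb in Cre and 1344 ± 363 in GFP. Its ratio of 1.08 (95% interval 1.00 to 1.17, adjusted p = 0.0978) was not called, though it passed without pair 1 (adjusted p = 0.0200) and with upper-quartile rescaling (0.0397). Sema3g was at 35 to 65 reads in Cre and 21 to 55 in GFP and was not called (adjusted p = 0.116).

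Class 4 semaphorins, membrane proteins that act in nerve and immune cells, had 3 of 5 tested members up from low levels. The share called higher over all genes tested was 22.2%. Sema4g was at 85, 91, 82 and 116 in Cre and at 35, 42, 49 and 61 in GFP, without overlap (log2 change 1.00 ± 0.15, adjusted p = 0.000486, unpaired 0.0873). Sema4f was lower still, at 42, 32, 75 and 24 in Cre and at 27, 18, 30 and 12 in GFP (log2 change 0.91 ± 0.21, adjusted p = 0.0058, unpaired 0.33) and it reached 1 CPM in 3 Cre libraries and 1 GFP library. Sema4d, the ligand of plexin B1, rose by 0.35 ± 0.09 (adjusted p = 0.00879, unpaired 0.716), which did not hold without pair 4 (adjusted p = 0.0547). Sema4b and Sema4c had ratios of 1.03 (95% interval 0.899 to 1.17) and 0.948 (0.874 to 1.03).

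Sema5a, a transmembrane semaphorin with thrombospondin repeats, was at 540, 587, 815 and 371 in Cre and at 436, 305, 325 and 235 in GFP. Cre library 4 lay below GFP library 1, so the groups overlapped, and the log2 change was 0.81 ± 0.13 (adjusted p = 0.000816, unpaired 0.194). Sema7a, which is tied to the membrane by a lipid anchor and binds plexin C1 and integrins, fell from 4739, 1863, 2672 and 2336 in GFP to 3959, 1498, 2091 and 1471 in Cre (log2 change -0.40 ± 0.06, adjusted p = 0.000689, unpaired 0.657). In both groups replicate 1 had the most Sema7a.

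Among the semaphorin receptors, 4 of 11 genes rose, 1 fell and 6 were not called. That is 36.4% higher and 9.09% lower, against 22.2 and 21.7% of all genes tested. Plxna3, a partner of neuropilins for class 3 semaphorins, was at 2056, 2362, 2448 and 3542 in Cre and at 1276, 1406, 1387 and 2120 in GFP. The pairs moved almost equally, with an SE of 0.04 around a log2 change of 0.75 (adjusted p = 2.48e-06, unpaired 0.136), although GFP library 4 lay above Cre library 1. Plxna3 lies on chromosome X from 74329066 to 74344689, plus strand. Plxnd1, the receptor of semaphorin 3E and best known from blood vessels, was at 2611, 1677, 1673 and 2243 in Cre and at 1820, 881, 1016 and 1069 in GFP (log2 change 0.81 ± 0.08, adjusted p = 3.36e-05, unpaired 0.165).

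Plxna2, a receptor of class 6 and class 3 semaphorins, was the single plexin that fell. It was at 3180, 3995, 3557 and 4071 in Cre and at 4612, 5335, 4811 and 4899 in GFP, every Cre library below every GFP library (log2 change -0.41 ± 0.05, adjusted p = 0.000106, unpaired 0.0903). Plxnb2, the plexin with the highest level per exon length over all libraries, rose from 11784 ± 1253 to 13166 ± 873 (log2 change 0.16 ± 0.04, adjusted p = 0.0121, unpaired 0.426), a call lost without pair 2 or 4 (adjusted p = 0.0766 and 0.0557). Plxna4 was at 28 to 89 reads in Cre and 20 to 47 in GFP (log2 change 0.72 ± 0.25, adjusted p = 0.0417, unpaired 0.421) and was not called without pair 3 (adjusted p = 0.196) or without a filter (0.0714).

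Plxna1, nearly as abundant per exon length as Plxnb2, had a ratio of 0.977 (95% interval 0.910 to 1.05), and Plxnb1, the receptor of Sema4d, one of 1.01 (0.937 to 1.1). The neuropilins, co-receptors shared with vascular endothelial growth factors, were not called either. Nrp1 was at 1590 ± 327 in Cre and 1582 ± 400 in GFP, a ratio of 1.01 (0.929 to 1.1). Nrp2 was at 152, 264, 214 and 359 in Cre and at 143, 248, 231 and 646 in GFP, so that GFP library 4 stood far above the rest. Its ratio was 0.874 (0.70 to 1.09). Plxnb3 and Plxnc1 had intervals of 0.883 to 1.45 and 0.922 to 1.46.

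The Slit and Robo genes were mostly near the floor of detection. Robo1, a Slit receptor, was the exception, at 8585 ± 1695 in Cre and 7850 ± 887 in GFP, with a ratio of 1.08 (95% interval 1.00 to 1.17, adjusted p = 0.0954). It was called higher without pair 1 (adjusted p = 0.0199) and with upper-quartile rescaling (0.0370). Robo3, a divergent Robo known from commissural axons, rose from 70, 41, 39 and 71 in GFP to 97, 77, 64 and 147 in Cre (log2 change 0.77 ± 0.15, adjusted p = 0.00216, unpaired 0.287). The ligands Slit1 and Slit2 were at 23 to 45 and 3 to 44 reads in Cre and at 6 to 39 and 0 to 27 in GFP, below the filter.

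Among netrins and their receptors, 1 of 5 tested genes rose and 2 fell, against 22.2 and 21.7% of all genes tested. Ntn1, the secreted attractant and repellent netrin-1, fell from 511, 591, 756 and 767 in GFP to 429, 521, 499 and 606 in Cre (log2 change -0.34 ± 0.08, adjusted p = 0.00489, unpaired 0.346). Unc5a, a netrin receptor, was at 82, 108, 11 and 60 in Cre and at 51, 62, 8 and 25 in GFP, with replicate 3 low in both groups (log2 change 0.78 ± 0.20, adjusted p = 0.00933, unpaired 0.703), and was not called without pair 4 (adjusted p = 0.0568).

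Unc5b, a netrin receptor also known from blood vessels, had the highest level per exon length of all 60 genes, at 2857 ± 987 normalised reads per kb in Cre and 3127 ± 992 in GFP. It was at 9865, 20429, 16830 and 24403 reads in Cre and at 10850, 20993, 20878 and 25562 in GFP. Its fall of 0.14 on the log2 scale was marginal (adjusted p = 0.0498, unpaired 0.889) and was lost in 7 of 11 paired alternatives, each pair left out among them (adjusted p up to 0.182). Ntn4, a laminin-like netrin of basement membranes, was at 35, 46, 88 and 484 in Cre and 38, 61, 78 and 490 in GFP, and Unc5c at 45, 461, 301 and 137 and 60, 462, 226 and 146. For both, the replicates differed far more than the groups, with ratios of 0.939 (95% interval 0.763 to 1.16) and 0.985 (0.806 to 1.20).

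The 9 members that were not tested were Epha3, Ephb1, Robo2, Robo4, Slit1, Slit2, Sema3f, Sema4a and Unc5d, none above 75 reads in any library. Sema3f was at 26, 58, 59 and 26 in Cre and 21, 20, 31 and 10 in GFP. Robo2 was at 27, 53, 28 and 41 in Cre and 8, 26, 24 and 21 in GFP, the lowest Cre library 1 read above the highest GFP library. Robo4, known from endothelium, did not exceed 5 reads, and Unc5d was at 0 in 5 libraries.

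Levels per exon length put Unc5b first among the members. Epha2 followed at 1859 ± 225 normalised reads per kb in GFP, then Plxna1 at 1552 ± 307, Plxnb2 at 1526 ± 162 and Sema3e at 1344 ± 363. From Epha2 to Sema3e the ranges of mean ± SD overlapped from each gene to the next, while that of Unc5b, at 3127 ± 992, lay above that of Epha2. The order within single libraries was not compared. Efnb2 at 896 ± 65.8 and Sema7a at 880 ± 385 per kb came next and likewise overlapped. At the other end, Robo4, Unc5d, Slit2 and Ephb1 stood below 1 normalised read per kb in GFP. The first 5 genes were the same in Cre, of which Plxnb2 rose, Unc5b fell marginally and 3 were not called. Sema6b moved from rank 17 in GFP to 10 in Cre.

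**Figure D4:**
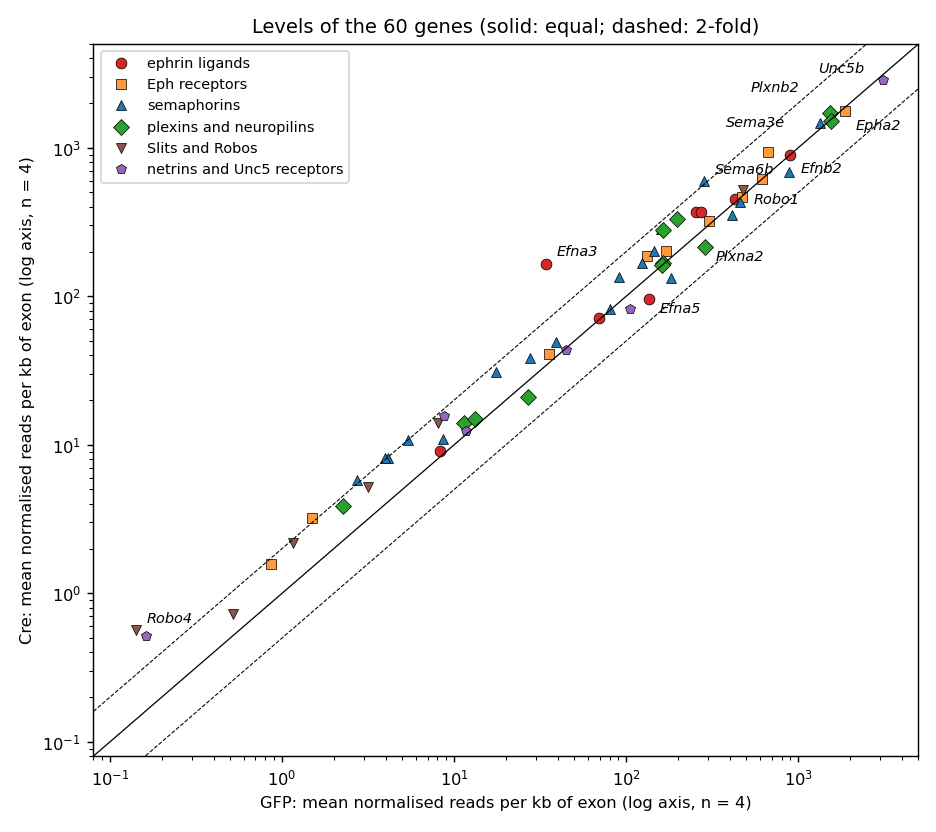
Mean normalised reads per kb of exon in Cre (y axis) against GFP (x axis), both log axes, n = 4 libraries each, for the 60 genes marked by role; the solid line marks equal levels and the dashed lines a 2-fold difference. Most genes lie near the solid line, and Efna3 lies above the upper dashed line, at 34.3 in GFP and 166 in Cre.

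How much of a gene's variation lay between Cre and GFP, and how much between replicate numbers, differed widely. For Efna3 and Sema6b, 94.6 and 91.1% of the sum of squares on the log2 scale lay between the groups, followed by Sema4g with 80.6%, Sema6c with 77.5% and Plxna2 with 76.5%. For Ntn4, Unc5c and Epha7, 99.4, 98.4 and 97.9% lay between replicate numbers. The median share between replicate numbers was 76.5% over the 51 members and 70.2% over all genes tested. It was 56.7% over the ligands and 86.3% over the receptors, a difference that was not tested.

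**Figure D5:**
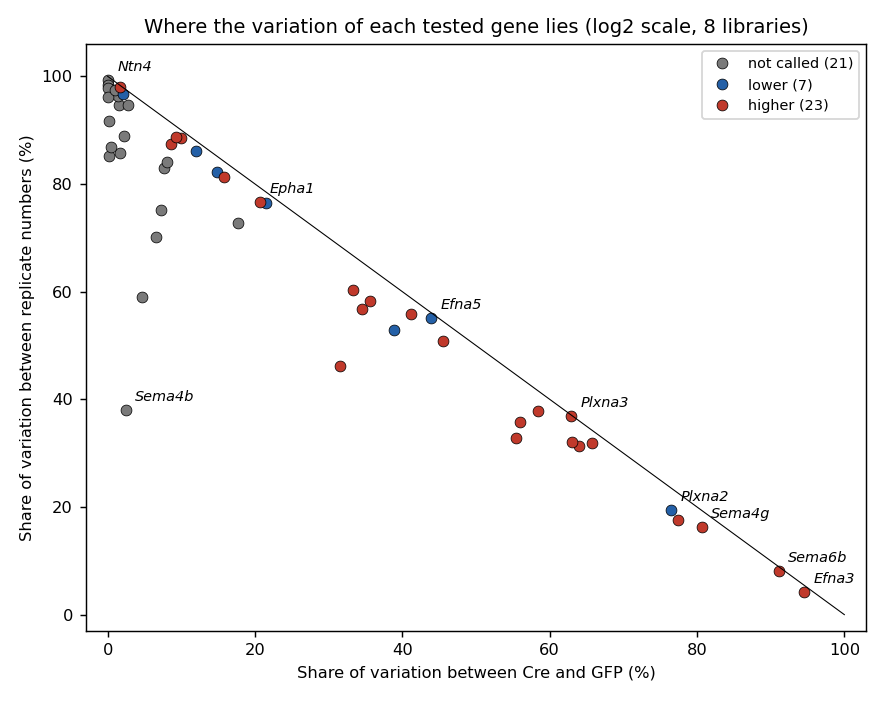
Share of each tested gene's variation (sum of squares of log2 values, 8 libraries) between replicate numbers (y axis, %) against the share between Cre and GFP (x axis, %); points on the line have no other variation. Efna3 and Sema6b lie at the lower right, at 94.6 and 91.1% between groups, and Ntn4 at the upper left, at 99.4% between replicate numbers.

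Other genes of the pathway were taken from 2 lists. Of 28 co-receptors and adhesion molecules of axon growth, 23 were measured, Dcc not among them, and 3 of these failed the filter. Of the 20 tested, 11 rose (55%) and 2 fell (10%). Of 64 genes that act downstream of the receptors, 61 were tested, with 15 higher (24.6%) and 11 lower (18.0%). Over all genes tested the shares were 22.2% higher and 21.7% lower, so those of the downstream list lay near them. Without the pairing, 3 of these 81 genes passed in limma, all higher (Draxin, L1cam and Pak3), and 0 passed as lower, against 0.837 and 0.248% of all genes. At unadjusted p under 0.05 there were 7 up and 2 down, against 7.41 and 9.3% of all genes. The median log2 change was 0.19 over the first list and -0.00 over the second.

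Draxin, a secreted binder of netrin receptors, was at 100, 119, 139 and 145 in Cre and at 22, 44, 43 and 50 in GFP (log2 change 1.68 ± 0.16, adjusted p = 3.04e-05, unpaired 0.0373). Pak3, a kinase activated by Rac and Cdc42, was at 466, 321, 319 and 770 in Cre and at 93, 110, 64 and 144 in GFP (2.14 ± 0.14, adjusted p = 4.04e-06, unpaired 0.0325), and its relative Pak1 fell by 0.50 (adjusted p = 1.49e-05, unpaired 0.204). Neither Draxin nor Pak3 had overlapping groups. The metalloprotease gene Mmp2 rose by 0.98, the Rac activator Dock1 fell by 0.49 and the actin regulator Enah rose by 0.45 (adjusted p = 2.48e-06, 5.18e-05 and 7.07e-05, unpaired 0.38, 0.41 and 0.523). L1cam, an adhesion molecule of growing axons, was named because it passed without the pairing, at 128, 78, 68 and 102 in Cre and 18, 17, 25 and 30 in GFP.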

How the data were processed

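RNA of 8 libraries was profiled, and the authors deposited a single table with a whole number per gene and library. Per the submitters' processing notes, featureCounts 1.5.3 (Subread), STAR 2.5.3a and DESeq are named together with mm10 and GRCm38. The library protocol was stranded, per the labels, but the sources used here do not say whether counting used strand, nor the settings or annotation. The deposited values were treated as a score and not as raw reads, because totals were nearly equal and some low whole numbers occurred in no gene of a library, or far more often than their neighbours, at even spacing, as scaling and rounding leave them.

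Genes with at least 4 libraries at 1 CPM were kept (12910 tested, 8066 removed), and limma 3.58.1 in R 4.3.3 was fitted with an intensity trend to log2(value + 1) over all of them. This scale understates changes of low genes. The replicate number was a block. The pairing was read from the deposited values: the correlation of deviations was 0.820 to 0.908 for equal numbers and -0.597 to 0.477 for unequal ones. Alternatives were no block, pseudocounts of 0.1 and 10, no filter or 5 CPM, rescaled totals or upper quartiles, voom, and leaving out each pair. P-values are two-sided. The fit was also run on simulated data with known changes. These data were built from means of same-numbered libraries with the same dispersion for every gene, so they cannot test the pairing. The design named a count model for raw counts, which was not used. With the block, precision is set by how the differences within pairs vary; genes near 28 reads, which is 1 CPM, carry more counting error.

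The genes described in full (28 by rule) were those called without the block, the 4 smallest p-values and the highest level per exon length in each of 6 role groups, and the 10 largest changes; the other members are given to account for all 60, and of the other pathway genes the 6 with the smallest p. Members and lists were chosen with earlier results of these data known. Exon lengths were unions of GENCODE M21 exons (60 of 60 members matched by identifier, 41 with identical coordinates). In the table, 14 members overlapped another gene; apart from Zyx the overlapping genes had means of at most 51.6 reads. Start regions came from RefSeq (GRCm38.p6); no protein sequences were used here. Tables and figures used Python 3.11.15, numpy 2.4.6, pandas 2.3.3 and scipy 1.17.1.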

Additional observations from a re-analysis of the deposited data

Results flagged for a closer look

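Of 29 genes looked at (the 28 described by rule and Chd4), each in both groups, 3 of 58 group values had 1 library far from the other 3. Chance gives such a gap in about 1 of 20 groups. Ntn4 was at 484 normalised reads in Cre library 4 against 35 to 88 in the other Cre libraries, and at 490 in GFP library 4 against 38 to 78 in the other GFP libraries, so the same replicate stood out in both groups. Plxna3 was at 2120 in GFP library 4 against 1276 to 1406 in the other GFP libraries, and replicate 4 was also the highest in Cre, at 3542.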

How the results depend on the processing

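Without the replicate block, 108 genes were called higher and 32 lower over all genes, 2 and 0 among the members, and 3 and 0 among the other pathway genes. Over the 11 paired alternatives, members called higher ranged from 17 to 27 and lower from 6 to 7. With 1 pair left out, members called higher were 17 to 23, pathway genes higher 17 to 25 (lowest without pair 4) and lower 10 to 12. Of 30 called members, 23 kept their call in every paired alternative that tested them. Signs turned only for members that were not called. With total rescaling, Plxnb1 came to -0.000368 and Nrp1 to -0.00443; with upper-quartile rescaling Ephb4 to 0.0103, Efnb2 to 0.00561 and Unc5c to 0.00169; with voom Unc5c to 0.0415 and Nrp1 to -0.00845. With 1 pair left out, the lowest and highest log2 changes of members whose sign turned were -0.100 and 0.0726 for Ephb6, -0.0733 and 0.0248 for Ephb4, -0.167 (without pair 3, the only such fit that tested it) for Efnb3, -0.0332 and 0.122 for Efna2, -0.0591 and 0.0238 for Efnb2, -0.178 and 0.0129 for Ntn4, -0.167 and 0.106 for Unc5c, -0.289 and 0.0225 for Nrp2, -0.0690 and 0.00602 for Plxna1, -0.0174 and 0.0613 for Plxnb1, -0.0260 and 0.0536 for Nrp1, and -0.0574 and 0.110 for Sema4b. The cause was not tested. Depth limits the 9 untested members, of which 5 passed when no filter was used.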

Other observations

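Replicates 1 and 4, with high Xist, and replicates 2 and 3, with Y-linked transcripts, were separated in both groups by a share of the members close to that of all genes: 27.5% of 51 tested members and 26.3% of all genes tested. In 7 members both values of replicates 1 and 4 lay below those of 2 and 3 within each group, and in 7 they lay above. Unc5c was at 45 and 137 in Cre libraries 1 and 4 against 461 and 301 in 2 and 3, and Epha7 at 797 and 513 against 132 and 177. With 2 replicates of each kind, mouse and sex cannot be told apart.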
